A study of Mus musculus with 10 samples.

Results

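Glycolysis splits glucose into pyruvate in the cytosol, and fast muscle fibres draw on it for short, intense work. Glucose enters the fibre through the carriers GLUT1 and GLUT4 or is released from stored glycogen by glycogen phosphorylase, and the pyruvate made is burned in mitochondria or reduced to lactate and exported. Muscle uses its own isoenzymes at several steps, while most other cell types use widely expressed ones, and many genes of the pathway are textbook targets of the hypoxia factor HIF-1. The 37 genes described here were taken by symbol from the deposited table of 21956 genes and cover glucose uptake, the steps of glycolysis, lactate handling, and glycogen storage and breakdown. All 37 were in the table, on 38 rows because Aldoa has 2, of which the row with the higher total was used. Each of the 37 passed the filter on low counts that left 13404 genes.

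Poly(A) RNA of gastrocnemius muscle, a large calf muscle, was sequenced from wild-type mice with 5 libraries in the Sham group and 5 in the HLI group. The abbreviation HLI is read here as hindlimb ischaemia, although no label writes it out. The sources used here give neither the age of the mice nor the time after surgery. By its title the series is about FGF13 in endothelium and how HIF-1α is degraded, and HLI against Sham is the comparison that the labels allow. No label ties a sample to its own mouse, so the spread that p-values are set against could be technical in part or whole. Estimated counts summed to between 16556385 and 22136299 per library. Levels are CPM, each library's counts scaled to a common total with TMM factors, and levels of different genes are compared in TPM, which is relative to gene length.

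Fibre genes showed skeletal muscle: Acta1, skeletal muscle actin, stood at 14343 CPM or more in every library. That does not tell gastrocnemius from other muscles. Single libraries stood apart from their group. Myh3, the embryonic myosin of newly formed fibres, was at 164 CPM in Sham replicate 1 against 3.97 to 5.63 CPM in the other Sham libraries, and at 7.71 CPM in HLI replicate 1 against 80.0 to 442 CPM in the other HLI libraries. HLI replicate 3 had the lowest score for fast fibre sarcomere genes, and HLI replicate 4 was the HLI library with the highest score. Counts below are therefore also given without these libraries.

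The pathway was lower in HLI on average, but 0 of its 37 genes passed the test (quasi-likelihood test of edgeR, p adjusted by Benjamini-Hochberg, threshold 0.05), as did 0% of the 13404 genes tested. Of the 37 genes, 31 had a log2 fold change of HLI over Sham below 0, against 46.2% of all genes, and the median was -0.32, against 0.03 over all genes. The 6 above 0 were Hk1, Pfkl, Pfkp, Pgam1, Eno1 and Stbd1, of which all but Stbd1 encode isoenzymes that are not the main form of muscle. At an unadjusted p under 0.05 stood 4 genes lower in HLI, where all genes gave 6.15%, and 0 higher, where all genes gave 10.7%. DESeq2 called 0 of the 37 as well, beside 0.0522% of all genes called lower and 0.261% called higher. At an unadjusted p under 0.05 DESeq2 had 13 of the 37 lower, against 8.39% of all genes. The limma fit on scaled TPM gave a smallest adjusted p of 0.29 among the 37.

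The libraries of a group did not move together. The median of the 37 genes relative to their Sham mean, on the log2 scale, was -0.25, -0.33, -1.09, 0.04 and -0.29 in HLI replicates 1 to 5, and lay between -0.16 and 0.11 in Sham. HLI replicate 3 was the lowest of all 10 libraries for 30 of the 37 genes, and HLI replicate 4 lay below every Sham library for 3 of them. The same share over all genes was not counted, so 30 cannot be read as particular to the pathway. HLI replicate 3 also had the lowest fast fibre score, -1.03. In 0 of the 37 genes did all HLI libraries lie below all Sham libraries, which 0.873% of all genes did, and in 0 did all lie above, which 0.776% did. For 15 genes 4 of the 5 HLI libraries lay below every Sham library, against 7.08% of all genes. HLI replicate 4 had the highest median of the HLI libraries, so leaving it out was bound to lower the HLI side. The median log2 fold change moved from -0.32 to -0.49. Without HLI replicate 4, all HLI libraries lay below all Sham libraries for 14 genes, against 6.11% of all genes. At an unadjusted edgeR p under 0.05, 27 genes were then lower, against 14.5%. Both counts follow in part from leaving out the highest HLI library, and they are no separate support for a lower level. No gene of the 37 passed the edgeR test then either, and the smallest adjusted p was 0.081. Without HLI replicate 3 the median was -0.19, and 6 genes were lower at an unadjusted p under 0.05, against 3.46%. All HLI libraries then lay below all Sham libraries for 0 genes, against 0.912% of all genes. The number of genes lower at that unadjusted p was 7 without Sham replicate 1, against 7.21% of all genes, and 7 without HLI replicate 1, against 6.25%. It was 2 when Sham replicate 2 was left out, against 2.86%, and 2 when Sham replicate 5 was, against 2.74%. Leaving out HLI replicate 2 also gave 2, against 5.71%, and leaving out HLI replicate 5 gave 2, against 3.55%. Without Sham replicate 1 and HLI replicate 1 together, 32 genes were below 0, against 46.8% of all genes, 9 were lower at an unadjusted p under 0.05, against 7.02%, and 0 passed, against 0.401%.

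**Figure D1:**
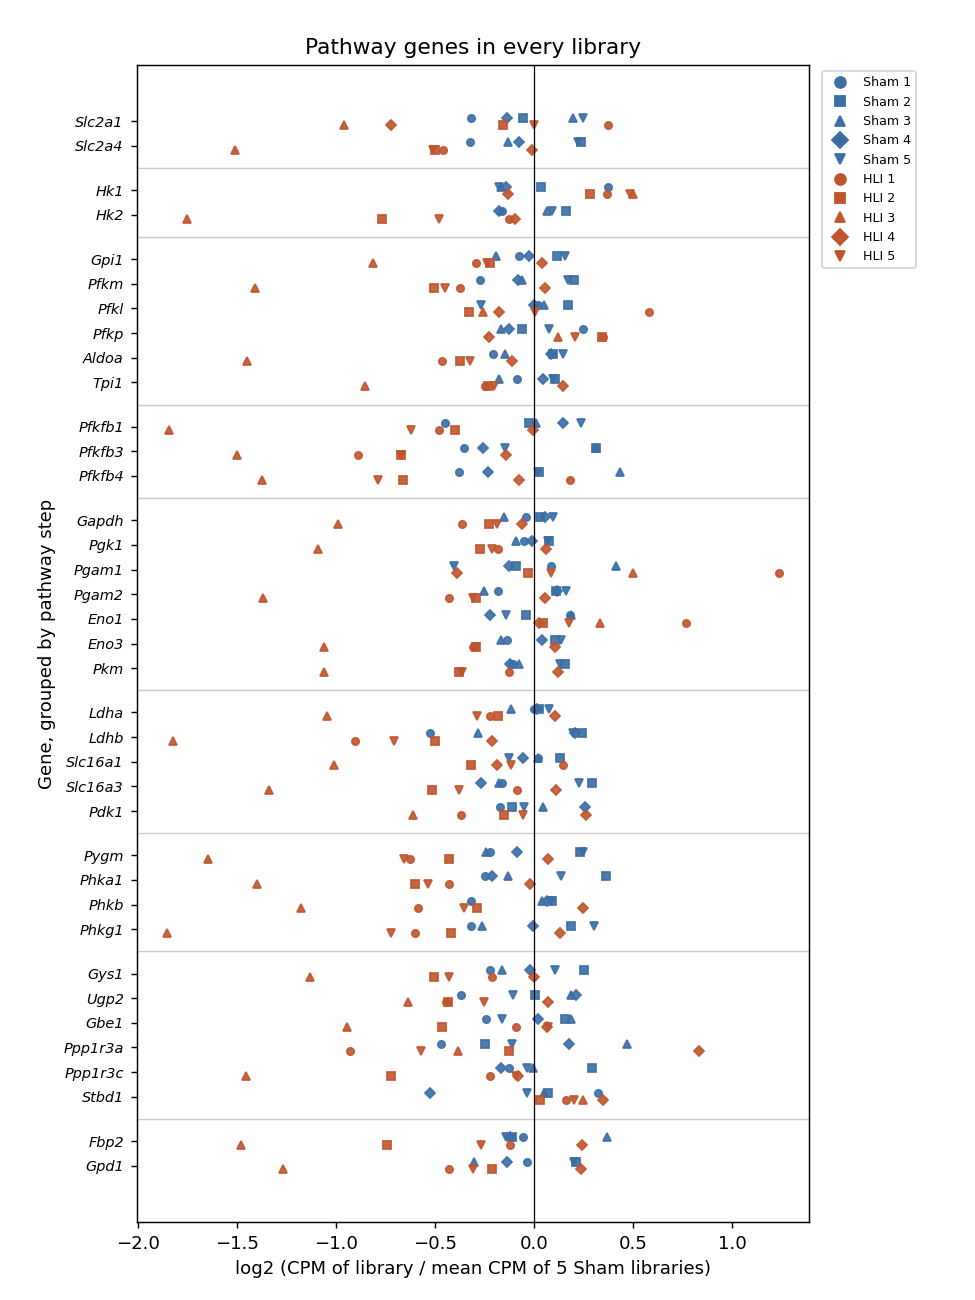
Each point is 1 library (symbols 1 to 5; blue Sham, orange HLI), placed on the x axis by the log2 ratio of its CPM to the mean CPM of the 5 Sham libraries, with genes on the y axis grouped by pathway step. HLI replicate 3, the orange upward triangle, is the lowest point for 30 of the 37 genes (share over all genes not counted). HLI replicate 4, the orange diamond, mostly lies among the blue points.

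As a whole the 37 genes held a large share of the muscle transcriptome. Their deposited TPM summed to 5.65%, 6.20%, 5.48%, 5.41% and 5.98% of all TPM in Sham replicates 1 to 5, and to 5.19%, 5.0%, 3.42%, 5.61% and 5.32% in HLI replicates 1 to 5. The ranges overlapped, since HLI replicate 4 lay inside the Sham range, and HLI replicate 3 was the lowest. Aldoa and Gapdh led, at 18678 ± 1154 and 10814 ± 487 TPM in Sham (SD, n = 5), and 9 genes had a Sham mean above 1000 TPM. At the other end stood the non-muscle isoenzyme gene Pfkl, at 9.87 ± 0.786 TPM, and Slc2a1, at 12.5 ± 2.15 TPM (SD, n = 5).

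**Figure D2:**
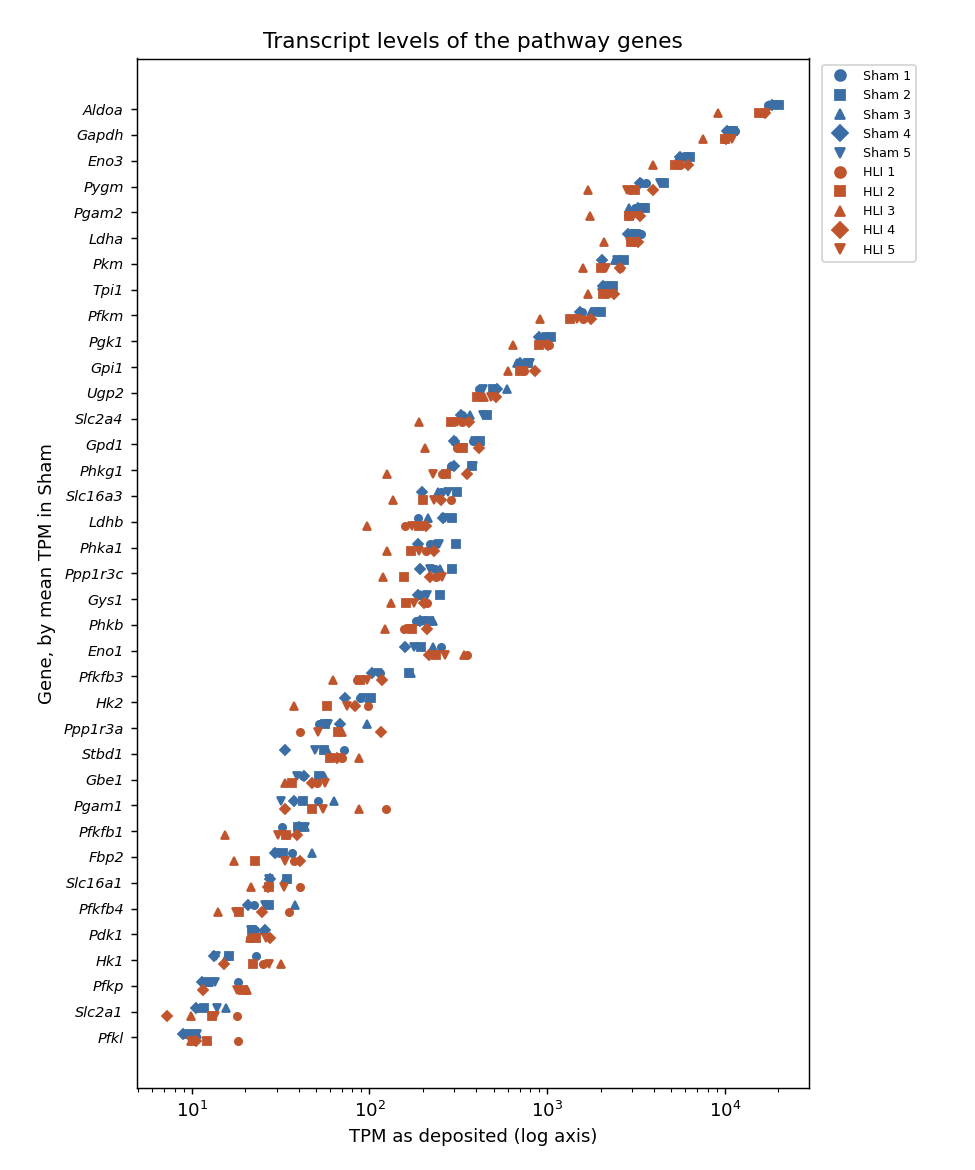
Deposited TPM of each gene in each of the 10 libraries (x, log axis), with genes on the y axis in the order of their Sham mean. Levels run from Aldoa, with a Sham mean of 18678 TPM, to Pfkl, with 9.87 TPM, and the muscle isoforms Pfkm, Pgam2 and Eno3 lie far above Pfkl, Pgam1 and Eno1.

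The promoters of 4 genes are shown because the title concerns HIF-1α and because Pgam1 and Pgam2 encode the same enzyme and had opposite signs. Each is the 250 bases before a RefSeq transcript start, on the gene's strand, build GRCm38.p6. Capitals mark ACGTG or GCGTG, the core of the hypoxia response element, on either strand; in CACGTG the matches of both strands overlap. Pfkfb3 has 2 windows and Ldha has 2, and the one with more matches is shown.
Pfkfb3, chr2:11502091-11502340, minus strand: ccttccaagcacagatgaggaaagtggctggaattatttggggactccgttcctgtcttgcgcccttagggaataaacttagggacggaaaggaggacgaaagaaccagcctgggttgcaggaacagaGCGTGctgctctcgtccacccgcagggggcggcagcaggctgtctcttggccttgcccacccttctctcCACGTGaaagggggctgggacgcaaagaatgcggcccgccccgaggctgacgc
Ldha, chr7:46845554-46845803, plus strand: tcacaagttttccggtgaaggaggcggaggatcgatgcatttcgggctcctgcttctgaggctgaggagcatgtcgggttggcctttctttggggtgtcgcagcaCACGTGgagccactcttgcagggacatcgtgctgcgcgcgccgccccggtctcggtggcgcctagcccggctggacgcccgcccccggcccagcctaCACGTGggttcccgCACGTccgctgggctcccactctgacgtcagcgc
Pgam1, chr19:41911621-41911870, plus strand: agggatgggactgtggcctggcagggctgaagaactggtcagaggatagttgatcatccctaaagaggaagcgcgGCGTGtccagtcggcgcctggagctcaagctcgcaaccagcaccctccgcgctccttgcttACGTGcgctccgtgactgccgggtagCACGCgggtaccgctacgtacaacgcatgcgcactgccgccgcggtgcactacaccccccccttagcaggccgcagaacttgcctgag
Pgam2, chr11:5803797-5804046, minus strand: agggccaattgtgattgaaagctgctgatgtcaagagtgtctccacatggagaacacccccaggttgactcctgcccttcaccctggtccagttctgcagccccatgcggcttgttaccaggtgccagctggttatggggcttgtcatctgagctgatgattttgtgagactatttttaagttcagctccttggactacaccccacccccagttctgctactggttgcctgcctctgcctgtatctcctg

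The letters were common among the 37 genes and among promoters in general. Promoter windows were at hand for 35 of the 37 genes, all but Slc2a4 and Gpd1. Of these 35, 28 (80.0%) held ACGTG or GCGTG in at least 1 window, against 41.5% of the 27025 genes in the RefSeq table. A gene can have several windows, and counted by window the share was 68.6% of 51, against 38.6% of 32851. ACGTG alone was found for 15 of the 35 genes (42.9%), against 18.5%. Both motifs contain CG, and the windows of the 35 genes had a median of 60.0% G and C, against 52.4% over all windows. Ldha carried 5 matches in the window shown, all of them ACGTG, and Pgam2 carried 0 in its only window. Genes below 0 also carried matches: the window of Hk2, with a log2 fold change of -0.54, held 2, and that of Eno3, at -0.32, held 1. Whether matches and direction go together was not tested. A match is a run of letters and not a measured binding site.

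Glucose uptake rests in muscle on Slc2a4, which encodes the insulin-responsive carrier GLUT4, and to a lesser degree on Slc2a1, which encodes GLUT1. Slc2a4 (ENSMUSG00000018566) had 414, 611, 472, 491 and 604 CPM in Sham replicates 1 to 5 and 376, 366, 182, 515 and 363 CPM in HLI replicates 1 to 5. Of the HLI libraries, 4 lay below every Sham library and HLI replicate 4 lay among them. Its log2 fold change was -0.52 (SE 0.23, edgeR unadjusted p = 0.042, adjusted p = 0.29), or -0.36 when HLI replicate 3 was left out and -0.70 when HLI replicate 4 was. Slc2a1 (ENSMUSG00000028645) had 17.6, 21.1, 25.2, 20 and 26.1 CPM in Sham and 28.5, 19.7, 11.3, 13.3 and 22.0 CPM in HLI. Its HLI libraries spread on both sides of the Sham range, with HLI replicate 1 highest and HLI replicate 3 lowest of all 10. The log2 fold change was -0.21 (SE 0.23, edgeR adjusted p = 0.59), and it moved to -0.41 when HLI replicate 1 was left out and to -0.07 when HLI replicate 3 was.

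Hexokinase traps glucose in the cell by phosphorylation, with Hk2 as the main isoenzyme of muscle and Hk1 as the widely expressed one. Hk2 (ENSMUSG00000000628) had 264, 331, 309, 261 and 314 CPM in Sham and 271, 173, 87.6, 276 and 212 CPM in HLI. HLI replicates 2, 3 and 5 lay below every Sham library, and the other two lay within their range. The log2 fold change was -0.54 (SE 0.25, edgeR adjusted p = 0.30), and -0.34 without HLI replicate 3. Hk1 (ENSMUSG00000037012) had the opposite sign, with a Sham mean of 36.6 ± 6.40 CPM against 45.6 ± 7.45 CPM (SD, n = 5), and its log2 fold change was 0.32 (SE 0.15, edgeR adjusted p = 0.30). Sham replicate 1, at 47.4 CPM, lay among the HLI libraries, and HLI replicate 4, at 33.4 CPM, lay among the Sham libraries.

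The upper part of glycolysis turns glucose 6-phosphate into 2 triose phosphates, and phosphofructokinase, with Pfkm as its muscle isoform, is its main point of control. Of its 6 genes 4 had values below 0, from -0.48 to -0.24. Aldoa (ENSMUSG00000030695), which encodes the muscle aldolase, had 10451, 12903, 10936, 12823 and 13376 CPM in Sham and 8767, 9323, 4431, 11193 and 9662 CPM in HLI. Every HLI library but replicate 4 lay below the Sham range, and the log2 fold change was -0.48 (SE 0.23, edgeR adjusted p = 0.30), or -0.31 without HLI replicate 3. Pfkm (ENSMUSG00000033065) had 2409, 3339, 2784, 2746 and 3270 CPM in Sham and 2240, 2050, 1096, 3017 and 2128 CPM in HLI. The same 4 HLI libraries were the low ones, and the log2 fold change was -0.47 (SE 0.23, edgeR adjusted p = 0.31), or -0.30 without HLI replicate 3. For Pfkl, the liver isoform gene, the log2 fold change was 0.0015 (SE 0.17), and for Pfkp, the platelet isoform gene, it was 0.17 (SE 0.13). The sign of Pfkl turned under 8 of the other settings, and it was -0.19 without HLI replicate 1, its highest library at 28.1 CPM. Gpi1, glucose 6-phosphate isomerase, and Tpi1, triose phosphate isomerase, had values of -0.28 (SE 0.16) and -0.24 (SE 0.17). Leaving out HLI replicate 3 gave -0.17 and -0.13.

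The PFKFB enzymes make and break fructose 2,6-bisphosphate, the strongest activator of phosphofructokinase, and their genes had the lowest median of the 9 steps, at -0.56. Pfkfb3 (ENSMUSG00000026773), which encodes an isoenzyme that mostly makes the activator, had 248, 394, 395, 266 and 287 CPM in Sham and 172, 199, 112, 288 and 199 CPM in HLI. HLI replicate 4 was the only HLI library inside the Sham range, and the rest lay below it. Its log2 fold change was -0.71 (SE 0.23), with the smallest unadjusted edgeR p of the 37 genes, 0.0094, and an adjusted p of 0.29. The fold change lay between -0.91 without HLI replicate 4 and -0.57 without HLI replicate 3. Pfkfb1, which gives the liver and muscle isoenzymes, had 41.4 ± 7.01 and 28.1 ± 10.7 CPM (SD, n = 5), and its log2 fold change was -0.56 (SE 0.26). Pfkfb4 had 52.8 ± 11.8 and 38.8 ± 15.9 CPM (SD, n = 5), a value of -0.44 (SE 0.26), and HLI replicate 1, at 59.7 CPM, lay inside the Sham range for it. Without HLI replicate 3 the values of Pfkfb1 and Pfkfb4 were -0.36 and -0.28. Neither passed the edgeR test (adjusted p = 0.30 and 0.36).

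The lower part of glycolysis yields the ATP of the pathway, and 5 of its 7 genes had values below 0, from -0.40 to -0.30. Gapdh (ENSMUSG00000057666), glyceraldehyde phosphate dehydrogenase, a gene often used as a reference in PCR, had 8633, 9059, 7997, 9231 and 9472 CPM in Sham and 6883, 7581, 4466, 8497 and 7790 CPM in HLI. All HLI libraries but replicate 4 lay below the Sham range, by a small margin except in HLI replicate 3. The log2 fold change was -0.33 (SE 0.19, edgeR adjusted p = 0.34), or -0.21 without HLI replicate 3. Pkm (ENSMUSG00000032294), which encodes the pyruvate kinase of muscle, had 2789, 3342, 2848, 2761 and 3285 CPM in Sham and 2748, 2311, 1439, 3269 and 2332 CPM in HLI. HLI replicate 1 lay just under the Sham range and HLI replicate 4 in it, and the log2 fold change was -0.31 (SE 0.20, edgeR adjusted p = 0.38), or -0.17 without HLI replicate 3. Pgk1, phosphoglycerate kinase, had 1073 ± 55.2 and 874 ± 226 CPM (SD, n = 5), and its log2 fold change was -0.30 (SE 0.18), or -0.15 without HLI replicate 3.

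Phosphoglycerate mutase and enolase each come in a muscle form, from Pgam2 and Eno3, and a widely expressed form, from Pgam1 and Eno1. Pgam2 (ENSMUSG00000020475) had 1427, 1751, 1358, 1757 and 1811 CPM in Sham and 1201, 1323, 628, 1682 and 1310 CPM in HLI. Eno3 (ENSMUSG00000060600) had 4606, 5437, 4498, 5199 and 5557 CPM in Sham and 4082, 4129, 2426, 5442 and 4125 CPM in HLI. In both muscle genes 4 HLI libraries lay below every Sham library and HLI replicate 4 lay inside the Sham range. Their log2 fold changes were -0.40 (SE 0.22) and -0.32 (SE 0.20), with edgeR adjusted p of 0.34 and 0.37, or -0.23 and -0.19 without HLI replicate 3. Pgam1 (ENSMUSG00000011752) had 49.7, 44.0, 62.5, 43.0 and 35.4 CPM in Sham and 110, 45.9, 66.2, 35.8 and 49.8 CPM in HLI. HLI replicate 1 was the highest, HLI replicate 3 was second, and the remaining 3 lay inside the Sham range. At 0.39 (SE 0.27, edgeR adjusted p = 0.41), its log2 fold change was 0.08 without HLI replicate 1. Eno1 (ENSMUSG00000063524) had 194, 167, 195, 147 and 155 CPM in Sham and 292, 177, 217, 175 and 194 CPM in HLI. The same 2 HLI libraries lay above every Sham library, and the log2 fold change was 0.30 (SE 0.16, edgeR adjusted p = 0.33), or 0.15 without HLI replicate 1. Pgam1, Eno1, Gapdh and other glycolysis genes have near-identical copies in the mouse genome, and how reads that match several copies were counted is not given, so their levels are uncertain to that extent.

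Pyruvate is turned into lactate by lactate dehydrogenase, whose Ldha subunit prevails in fast fibres and whose Ldhb subunit prevails in heart and oxidative fibres. Ldha (ENSMUSG00000063229) had 2896, 2946, 2667, 2921 and 3045 CPM in Sham and 2477, 2547, 1403, 3113 and 2369 CPM in HLI. Its Sham libraries were close together, HLI replicate 4 lay above them and the other 4 lay below. The log2 fold change was -0.28 (SE 0.19, edgeR adjusted p = 0.40), or -0.14 without HLI replicate 3. Ldhb (ENSMUSG00000030246) had 129, 220, 153, 215 and 213 CPM in Sham and 99.4, 131, 52.4, 160 and 114 CPM in HLI. HLI replicates 1, 3 and 5 lay below every Sham library, and replicates 2 and 4 lay within the lower part of their range. Its log2 fold change of -0.74 was the largest in size of the 37 genes (SE 0.26, edgeR unadjusted p = 0.015, adjusted p = 0.29), and was -0.92 when HLI replicate 4 was left out and -0.56 when HLI replicate 3 was. The monocarboxylate carriers had smaller values. Slc16a1, which encodes MCT1, often a lactate importer, had a log2 fold change of -0.25 (SE 0.17). Slc16a3, which encodes the lactate exporter MCT4 of fast fibres, had -0.37 (SE 0.23). Pdk1, a kinase that switches off pyruvate dehydrogenase, had -0.16 (SE 0.16). Without HLI replicate 3 these were -0.11, -0.20 and -0.06.

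Glycogen breakdown needs glycogen phosphorylase, from Pygm in muscle, and phosphorylase kinase, which activates it and whose subunits come from Phka1, Phkb and Phkg1 among others. All 4 genes had values below 0, with a median of -0.55, the second lowest of the 9 steps. Pygm (ENSMUSG00000032648) had 5594, 7667, 5507, 6143 and 7728 CPM in Sham and 4221, 4846, 2085, 6837 and 4132 CPM in HLI. HLI replicate 4 lay inside the Sham range and the other HLI libraries below it, and the log2 fold change was -0.56 (SE 0.27, edgeR adjusted p = 0.30), or -0.38 without HLI replicate 3. Phka1 (ENSMUSG00000034055), the muscle α subunit, had 719, 1096, 779, 735 and 935 CPM in Sham and 633, 561, 323, 841 and 588 CPM in HLI. The same 4 HLI libraries lay below every Sham library, and the log2 fold change was -0.53 (SE 0.23, edgeR unadjusted p = 0.036, adjusted p = 0.29). Phkg1, the catalytic subunit of muscle, had 461 ± 86.6 and 312 ± 135 CPM, and Phkb, the β subunit, had 385 ± 43.0 and 300 ± 104 CPM (SD, n = 5). Their log2 fold changes were -0.56 (SE 0.29) and -0.36 (SE 0.22), or -0.36 and -0.21 without HLI replicate 3.

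Of the genes of glycogen synthesis and of its targeting, 5 of 6 were below 0, with a median of -0.27. Gys1 (ENSMUSG00000003865), the muscle glycogen synthase, had 387, 538, 404, 445 and 486 CPM in Sham and 389, 318, 206, 452 and 335 CPM in HLI. HLI replicates 2, 3 and 5 lay below the Sham range, and the log2 fold change was -0.41 (SE 0.19, edgeR adjusted p = 0.30). Ugp2 (ENSMUSG00000001891), which makes the UDP-glucose that glycogen synthase uses, had 539, 698, 793, 807 and 648 CPM in Sham and 511, 516, 448, 730 and 585 CPM in HLI. HLI replicates 1 to 3 lay below the Sham range, and the log2 fold change was -0.32 (SE 0.16, edgeR adjusted p = 0.32). Gbe1, the branching enzyme, had -0.23 (SE 0.19), or -0.09 without HLI replicate 3. Ppp1r3c, a subunit that brings protein phosphatase 1 to glycogen, had -0.43 (SE 0.23), or -0.26 without it. Ppp1r3a, the muscle subunit of the same kind, had 486 CPM in HLI replicate 4 and 143 CPM in HLI replicate 1, the highest and the lowest of all 10 libraries. Its log2 fold change of -0.10 (SE 0.30) was 0.05 when HLI replicate 1 was left out and -0.49 when HLI replicate 4 was. Stbd1, a glycogen-binding protein linked to the delivery of glycogen to lysosomes, was the 1 gene of this step above 0, at 0.20 (SE 0.14), with 42.8 to 77.1 CPM in Sham and 63.0 to 78.5 CPM in HLI, and it was 0.08 without Sham replicate 4.

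The side branches held 2 genes. Gpd1 (ENSMUSG00000023019), which links glycolysis to glycerol phosphate and carries electrons to the mitochondria, had 593, 703, 492, 553 and 699 CPM in Sham and 450, 525, 252, 716 and 491 CPM in HLI. HLI libraries lay on both sides of the Sham range, with HLI replicate 4 the highest of all 10 libraries and HLI replicate 3 the lowest, and the log2 fold change was -0.32 (SE 0.23, edgeR adjusted p = 0.43). Fbp2, the muscle fructose bisphosphatase, which runs the phosphofructokinase step backwards, had 28.0 ± 4.60 and 21.8 ± 8.79 CPM (SD, n = 5), a value of -0.37 (SE 0.26). Without HLI replicate 3 the values of Gpd1 and Fbp2 were -0.16 and -0.18.

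Ratios between isoforms within a library do not depend on how libraries are scaled to each other. In 5 of 8 pairs compared, the gene of the form that is not muscle's main one was more than 1.5-fold higher in HLI relative to the muscle gene, but none of the 8 passed after adjustment (exact two-sided permutation test over the 252 assignments, smallest possible p = 0.0079, Benjamini-Hochberg over 8 pairs). These 5 are not separate results, since Pfkl and Pfkp are both set over Pfkm. Fewer of them exceed 1.5-fold when HLI replicate 3 is left out. Folds of a ratio are given between the geometric means of the groups, from mean log2 ratios. The TPM ratio of Hk1 over Hk2 was 1.98-fold higher in HLI, the largest of the 8 (exact p = 0.032, adjusted p = 0.079). It stood at 0.262, 0.158, 0.158, 0.183 and 0.149 in Sham and at 0.256, 0.382, 0.843, 0.183 and 0.363 in HLI. HLI replicates 2, 3 and 5 lay above every Sham library, replicates 1 and 4 did not. The ratio of Eno1 over Eno3 was 1.56-fold higher (exact p = 0.040, adjusted p = 0.079), at 0.0286 to 0.0430 in Sham and 0.0349 to 0.0870 in HLI. Pfkl over Pfkm was 1.51-fold higher (exact p = 0.024, adjusted p = 0.079), at 0.00477 to 0.00603 in Sham and 0.00594 to 0.0114 in HLI. In both pairs all HLI libraries but replicate 4 lay above the Sham range. For Pfkp over Pfkm the fold was 1.64 (exact p = 0.079, adjusted p = 0.13), and for Pgam1 over Pgam2 it was 1.70 (exact p = 0.20, adjusted p = 0.26).

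Of the remaining pairs, Slc2a1 over Slc2a4 also sets a form that is not muscle's main one over the muscle form. Ldha over Ldhb and Slc16a3 over Slc16a1 compare forms by other traits. Ldha over Ldhb was 1.38-fold higher in HLI (exact p = 0.040, adjusted p = 0.079), at 10.8 to 17.9 in Sham and 15.6 to 21.6 in HLI, with Sham replicate 1 the one Sham library inside the HLI range. Slc2a1 over Slc2a4 was 1.26-fold higher (exact p = 0.25, adjusted p = 0.28). For this pair 4 HLI libraries lay above every Sham library, and HLI replicate 4 lay below every Sham library. Slc16a3 over Slc16a1 was at 0.905 times its Sham value (exact p = 0.29, adjusted p = 0.29). Without HLI replicate 4, 5 of the 8 pairs had an adjusted p of the exact test under 0.05. They were Eno1 over Eno3, Pfkl over Pfkm, Pfkp over Pfkm and Slc2a1 over Slc2a4 (adjusted p = 0.032 each), and Hk1 over Hk2 (adjusted p = 0.038). Among HLI libraries, replicate 4 had the lowest ratio in each of these 5 pairs, so leaving it out had to raise the HLI mean. Without HLI replicate 3 the log2 difference was 0.67 for Hk1 over Hk2, against 0.99 with it, and 0.46 for Eno1 over Eno3, against 0.64. For Pgam1 over Pgam2 it was then 0.49, against 0.76, and for Pfkp over Pfkm 0.51, against 0.71. Without Sham replicate 1 and HLI replicate 1 together, Hk1 over Hk2 differed by 1.24 on the log2 scale. The smallest adjusted p of the exact test was then 0.11, with 4 libraries a group. So few libraries leave few assignments, and a pair cannot pass adjustment over 8 pairs unless several do together.

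**Figure D3:**
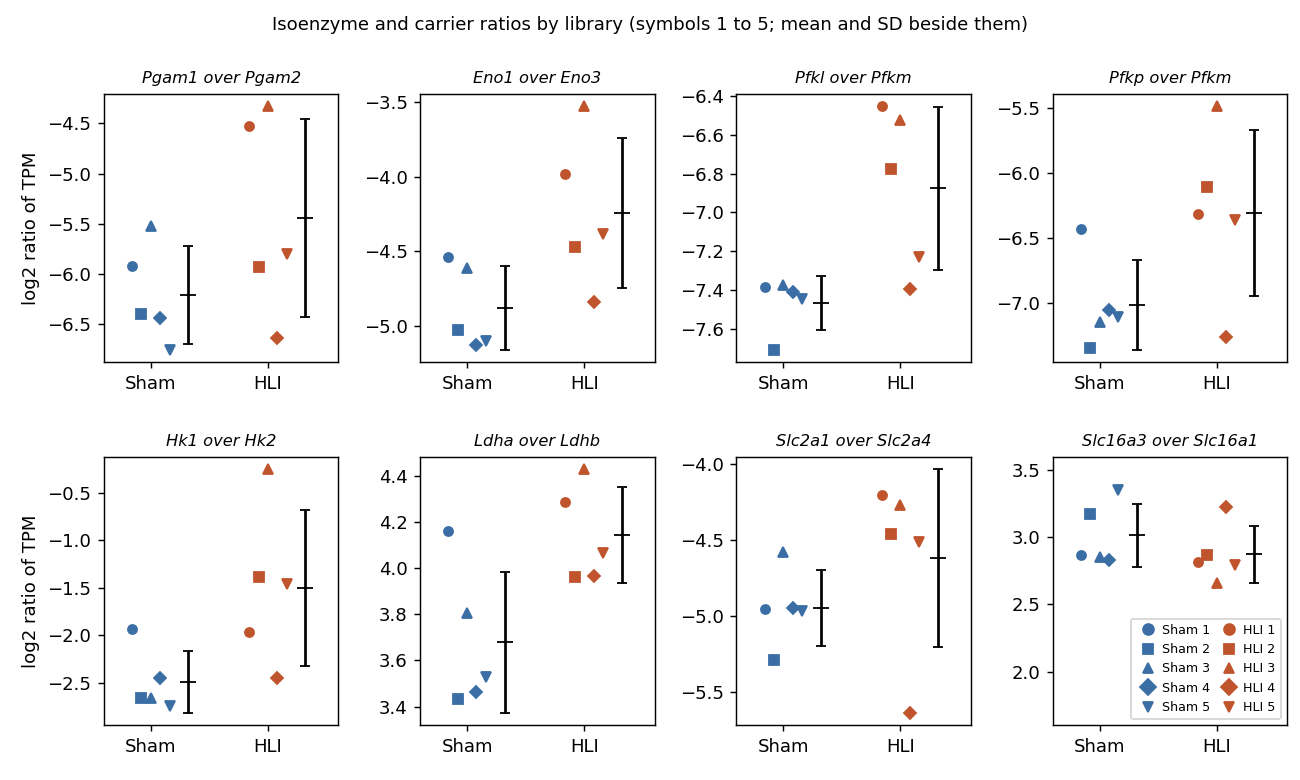
The log2 ratio of deposited TPM (y) between 2 genes of a step in each library, for 8 pairs, with Sham in blue and HLI in orange, symbols for replicates 1 to 5, and the mean and SD of each group in black; the y axes differ between panels. HLI replicate 4 lies at Sham level in most panels, and HLI replicate 3 is the highest library for Hk1 over Hk2, at a TPM ratio of 0.843.

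Marker lists of muscle fibres and of other cell types were read in the same libraries, and 0 markers of any list were called (edgeR; whether the lists and the pathway move together was not tested). Of 14 fast fibre sarcomere genes, 13 had values below 0, with a median log2 fold change of -0.50, and their summed level was 150549 to 205406 CPM in Sham and 67799 to 176893 CPM in HLI. In bulk tissue, fewer cells of a type and less RNA per cell cannot be told apart. Set against the mean of this list in the same library, 27 of the 37 pathway genes were above 0 and 10 below, with a median of 0.16, and no gene had all HLI libraries on 1 side of all Sham libraries (all genes, 1.88% above and 0.0149% below). Over all genes 95.9% were above 0 on this scale, with a median of 0.54. Ldhb and Pfkfb3 were the lowest, at -0.28 (SE 0.11) and -0.23 (SE 0.20), and Pfkm, Aldoa and Slc2a4 lay at -0.01, -0.02 and -0.06 (SE 0.12, 0.08 and 0.11). The highest were Hk1, Pgam1 and Eno1, at 0.84 (SE 0.36), 0.83 (SE 0.50) and 0.80 (SE 0.36). Of 11 macrophage markers, 11 had values above 0, and they summed to 637 to 1623 CPM in Sham and 828 to 3507 CPM in HLI, with the highest sum in HLI replicate 1, the highest library for Pgam1 and Eno1. The 5 erythroid genes summed to 526 to 1194 CPM in Sham and 575 to 3081 CPM in HLI, again highest in HLI replicate 1. The 6 fibroblast genes summed to 6523 to 9339 CPM in Sham and 4483 to 18384 CPM in HLI, highest in HLI replicate 3 and lowest in HLI replicate 4. The 6 satellite cell and regenerating fibre genes, 5 of them above 0 with a list median of 1.87, summed to 42.0 to 285 CPM in Sham and 77.4 to 1260 CPM in HLI, highest in HLI replicate 3. Of the 8 slow fibre genes 7 were below 0, with a median of -0.51, and their sum of 1914 to 3257 CPM in Sham and 815 to 2921 CPM in HLI was lowest in HLI replicate 3. Endothelial sums were 794 to 1451 CPM in Sham and 882 to 1446 CPM in HLI, and of the neutrophil markers tested 2 were above 0 and 2 below. Of the 5 T and NK cell markers only 2, Nkg7 and Lck, passed the filter on low counts. They summed to 0.114 to 1.93 CPM in Sham and 1.10 to 9.10 CPM in HLI, highest in HLI replicate 3. At such low levels a gene can pass the filter through the group where it is higher, so no direction is read from them. All 5 adipocyte genes were below 0, with sums of 446 to 602 CPM in Sham and 389 to 658 CPM in HLI, lowest in HLI replicate 4. Most of each sum was Fabp4, and Adipoq was at 5.91 CPM in HLI replicate 4 against 28.1 to 70.9 CPM in the other libraries. No marker of these lists was at 0 in every library, and the part of these cells in the pathway values was not tested.

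**Figure D4:**
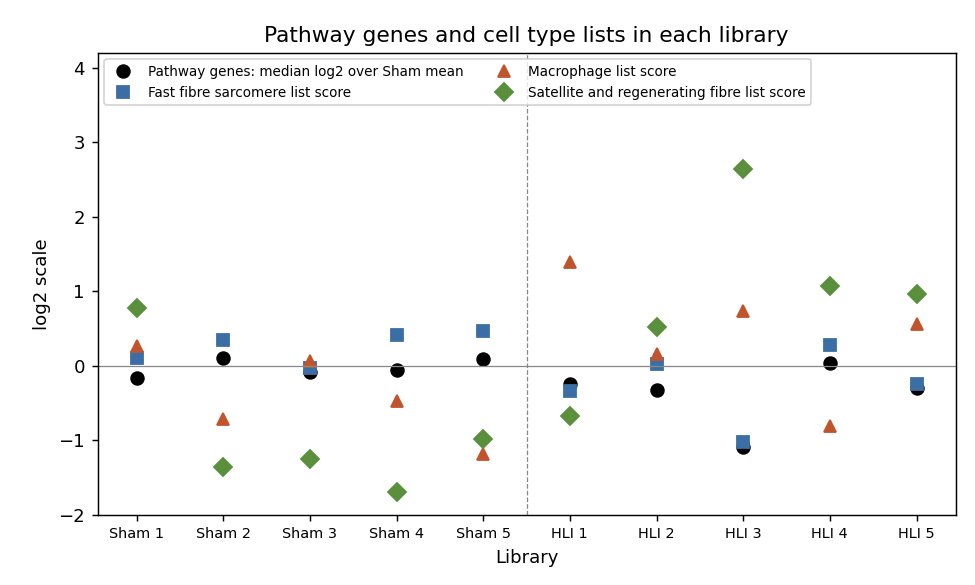
For each library (x), the median log2 ratio of the 37 pathway genes to their Sham mean (black), and the scores of fast fibre (blue), macrophage (orange) and regenerating fibre (green) lists, a score being the mean log2 CPM of a list relative to all 10 libraries (y, log2 scale). HLI replicate 3 has the lowest pathway median, -1.09, and the lowest fast fibre score, -1.03, and HLI replicate 4 has 0.04 and 0.28.

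A list of further genes of these pathways was chosen by function. Of 68 symbols 67 were in the table and 55 passed the filter on low counts. Of these 55, 36 were below 0, against 46.2% of all genes, and 19 were above. Among them 0 were called by edgeR, as were 0% of all genes. DESeq2 also called 0 of them, beside 0.0522% of all genes called lower and 0.261% called higher. At an unadjusted p under 0.05 stood 10 lower and 1 higher, the latter being Pdk3, another pyruvate dehydrogenase kinase gene, named after its value was seen, at 4.58 ± 1.84 and 8.29 ± 4.53 CPM (SD, n = 5). Gyg, glycogenin, the protein primer of glycogen, had 315, 414, 327, 419 and 433 CPM in Sham and 266, 301, 191, 338 and 267 CPM in HLI. Its HLI replicate 4 lay inside the Sham range, and the log2 fold change was -0.49 (SE 0.16, edgeR adjusted p = 0.29). Slc2a12, which encodes the glucose carrier GLUT12, had -0.57 (SE 0.19). Gaa, the lysosomal enzyme that digests glycogen, had -0.44 (SE 0.16). Pdp2, a phosphatase that reactivates pyruvate dehydrogenase, had -0.48 (SE 0.18), and all 3 shared an edgeR adjusted p of 0.29.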

How the data were processed

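The 10 libraries held poly(A) RNA. Bowtie 0.12.2, HISAT2 2.0 and the genome build mm8 appear, without roles, in the submitters' processing notes, and the sources used here do not give the counting tool, the annotation or the use of strand. The descriptions disagree on how the RNA was prepared, and they also name other material. The extraction protocol mentions adipose tissue, and the design text mentions cells. The authors deposited for each library an estimated count per gene, not normalized and 93.4% whole, and its TPM, as the file headers name them (per the file headers). Of the libraries, 0 were identical in their values.

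The rounded counts entered edgeR 4.0.16 in R 4.3.3 (TMM; quasi-likelihood test; filterByExpr at min.count 10 and min.total.count 15; no covariate; p-values adjusted over all genes). Alternatives used DESeq2 1.42.0 and limma 3.58.1 on log2(TPM + 1) and log2(TPM + 0.1) scaled by median of ratios. The edgeR step was tested on simulated counts. Marker scores used log2 CPM with a prior count of 2.

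Values of every library are given for the members with an unadjusted p under 0.05, the member with the highest mean TPM of each step and 14 fixed genes; the others are given by fold change or range. Of the further pathway genes, the called ones and the 4 with the smallest p were to be named. The genes, lists and steps were chosen with earlier results of these data known. The alternative without Sham replicate 1 and HLI replicate 1 together, and the counts of members below 0, were chosen after seeing the data. A planned comparison of protein sequences was not made.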

Additional observations from a re-analysis of the deposited data

Results flagged for a closer look

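Each of the 37 genes and 8 isoform ratios was checked in both groups for 1 library far from the other 4, and 4 of 90 groups were singled out, where chance alone gives about 1 in 20. Phkb was at 309 CPM in Sham replicate 1, against 396 to 409 CPM in the other Sham libraries. Fbp2 was at 36.2 CPM in Sham replicate 3, against 25.4 to 27.0 CPM in the others. The log2 TPM ratio of Pfkl over Pfkm was -7.71 in Sham replicate 2, against -7.45 to -7.37 in the other Sham libraries. The log2 TPM ratio of Slc2a1 over Slc2a4 was -5.64 in HLI replicate 4, against -4.51 to -4.20 in the other HLI libraries.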

How the results depend on the processing

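No gene of the 37 passed the test in any fit run on counts or TPM. None of the further pathway genes passed in any fit run on counts, and not all of them were read in the fits on TPM. The number of the 37 genes below 0 lay between 30 and 32 when single libraries were left out. It was 32 with DESeq2, with the replicate block and without Sham replicate 1 and HLI replicate 1 together. Over all genes, edgeR called 0, DESeq2 called 35 higher and 7 lower, and the fit without Sham replicate 1 and HLI replicate 1 called 51 higher and 3 lower. On TPM as deposited the median of all genes was 0.19; relative to it 31 of the 37 genes were below, and 29 were below 0 without that correction. No label says whether the replicate numbers pair the samples, and 5 correlations are too few to decide it. The correlation of the deviations of same-numbered libraries ran from -0.0090 to 0.28. Of the 5 Sham libraries, 2 correlated best with the HLI library of their own number, and 0 HLI libraries did so in the other direction. With the replicate block 0 of the 37 genes were called, and at an unadjusted p under 0.05 12 were lower, against 9.5% of all genes, and 2 (Hk1 and Eno1) were higher, against 12.8%, where the fit without the block had 4 and 0. The exact sign-flip test of paired ratios cannot go below p = 0.0625.

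Of the 37 genes, 3 had another sign under some setting: Pfkl, Ppp1r3a and Pdk1. On TPM as deposited, without the correction for the median of all genes, Pdk1 was 0.02 and Ppp1r3a was 0.0022. Pfkl was -0.030 with the replicate block, -0.0093 with no filter, -0.011 with DESeq2 size factors, -0.012 with DESeq2 and -0.18 without the first replicate of both groups. Single libraries left out gave -0.19 (HLI 1) to 0.073 (HLI 2) for Pfkl, below 0 also for Sham 4 (-0.011) and Sham 5 (-0.062). For Ppp1r3a they gave -0.49 (HLI 4) to 0.047 (HLI 1), above 0 also for Sham 3 (0.034). When single libraries were left out, the log2 difference of the ratio lay between 0.46 and 0.79 for Eno1 over Eno3, 0.48 and 0.72 for Pfkl over Pfkm, 0.51 and 0.95 for Pfkp over Pfkm, 0.67 and 1.23 for Hk1 over Hk2, and 0.23 and 0.59 for Slc2a1 over Slc2a4. Adjusted p under 0.05 came only without HLI replicate 4, and the cause was not tested. With 5 libraries a group, few exact p-values can pass adjustment over 8 pairs.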
